A study of Mus musculus with 8 samples.

Results

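The genes described here encode the enzymes and scaffolds that pass ubiquitin and its relatives to proteins. They are the E1 activating enzymes named Uba followed by a digit, the E2 conjugating enzymes named Ube2, the cullins, and the F-box proteins named Fbxl, Fbxo or Fbxw. They were chosen by symbol alone, and 106 of the 14709 genes listed in either table matched, comprising 5 E1s, 34 genes of the E2 class, 8 cullins and 59 F-box genes. The choice sets 1 further E1 aside, which is not analysed here, and the symbol rule also took in Ube2cbp, which encodes a ubiquitin ligase despite its name.

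Ubiquitin is activated by an E1, handed to an E2 and joined to a substrate with the help of an E3 ligase. In the largest family of E3 ligases a cullin serves as the scaffold. Its one end holds a RING protein (Rbx1 or Rnf7) that binds the charged E2, and its other end holds an adaptor with an exchangeable substrate receptor. For Cul1 and Cul7 the adaptor is Skp1 and the receptors are F-box proteins, which are grouped by what binds the substrate, namely leucine-rich repeats in Fbxl, WD40 repeats in Fbxw and other domains in Fbxo. Cullins work when the ubiquitin-like protein NEDD8 is attached to them by an E1 and E2 of their own. In mouse embryonic stem cells (mESCs) this system governs the turnover of cell cycle regulators and transcription factors.

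Expression was measured by RNA-seq in mESCs of the cross C57BL/6(F) x 129/sv(M), grown on gelatin with serum and leukemia inhibitory factor, in 4 conditions of 2 replicates each. Cells with the reporter protein (KLF3-GFP-positive) and without it (KLF3-GFP-negative) were sorted, 500 per sample, from picked colonies that carried a constantly transcribed CAGGS transgene and were amplified by Smart-seq2. The transgene encodes GFP joined to an N-terminal stretch of KLF3 that lacks the DNA-binding domain, next to a DsRed marker. Both sorted populations therefore carried the same construct and differed in how much of the fusion protein was present. In the other experiment, clones with M2rtTA at the Rosa26 locus and a doxycycline-driven codon-optimized Klf3 (KLF3-OE) or GFP (GFP-OE) at an FRT site in Col1a1 were induced for 72 h, and poly(A) RNA was sequenced.

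Each deposited value is the authors' mean of the 2 replicates in FPKM, which counts fragments per kilobase of transcript and relative to sequencing depth, so levels can be compared between genes per length. The spread between replicates and the read depth are unknown. No difference below could be set against replicate error, and no test was possible. A difference is that of log2(FPKM + 1) between the 2 columns of a table, which understates the change of low genes. A gene was assessed if its mean over the 2 columns was at least 1 FPKM. It was called upregulated above a fold of 2 and downregulated below a fold of 0.5 on this scale, which is a rule of size only.

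The cells compared differed in more than KLF3. All 14 primitive endoderm markers assessed were called upregulated in both experiments, with summed levels of 25.4 FPKM in negative and 908 FPKM in positive sorted cells, and of 115 and 514 FPKM in GFP-OE and KLF3-OE cells. Foxa2 and Cubn of this list were listed at 0.1 FPKM, the lowest value of the tables, in KLF3-GFP-negative cells. The 14 naive pluripotency markers summed to 592 and 316 FPKM in the sorted cells and to 2142 and 1703 FPKM in the overexpression experiment. Of them, 7 of 13 assessed were called downregulated and 1 (Tbx3, 1.02) upregulated in sorted cells, and 6 of 14 were called downregulated and 0 upregulated in KLF3-OE cells. Listed trophoblast markers summed to 37.0 and 398 FPKM in sorted cells (3 of 5 assessed called upregulated). In the overexpression experiment they summed to 109 and 555 FPKM (3 of 8). Both sums rose mostly through the keratins Krt8 and Krt18, while Cdx2 was at or below 0.6 FPKM. Of those assessed, 1 of 5 and 2 of 8 were lower, namely Tfap2c in both experiments (-0.94 and -0.95) and Tead4 in KLF3-OE cells (-0.59). Of all assessed genes, 13.8% and 6.6% were called upregulated, and 8.32% and 10.1% downregulated. Fibroblast and feeder markers summed to 17.9 and 12.0 FPKM, and to 69.2 and 71.9 FPKM. The part of these cell type markers in the differences of the ubiquitin genes was not tested, and in bulk samples fewer cells of a type and less RNA per cell cannot be told apart. Transcripts of Klf3 itself were at 107 and 122 FPKM in negative and positive sorted cells and at 58.7 and 47.8 FPKM in GFP-OE and KLF3-OE cells, a measure that need not count the codon-optimized transgene. In both sorted populations it may include reads from the reporter transgene, which encodes a stretch of KLF3.

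The members Cul7, Fbxw9, Ube2l6 and Ube2m, were called upregulated in both experiments, and the stretch before their transcription start is shown because KLF3 belongs to a family of factors that bind CACCC boxes. The sequences are the last 150 bases before the start given by RefSeq for GRCm38.p6, written 5′ to 3′ on the strand of the gene, with CACCC or its reverse complement GGGTG in capitals. They lie at chr17:46650188-46650337 on the plus strand (Cul7), chr8:85059969-85060118 on the plus strand (Fbxw9), chr2:84798678-84798827 on the plus strand (Ube2l6) and chr7:13038276-13038425 on the minus strand (Ube2m, the one of its 3 listed starts nearest to the deposited locus).
Cul7: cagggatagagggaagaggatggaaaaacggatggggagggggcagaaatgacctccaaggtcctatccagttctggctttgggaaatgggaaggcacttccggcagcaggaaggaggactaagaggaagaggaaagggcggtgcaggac
Fbxw9: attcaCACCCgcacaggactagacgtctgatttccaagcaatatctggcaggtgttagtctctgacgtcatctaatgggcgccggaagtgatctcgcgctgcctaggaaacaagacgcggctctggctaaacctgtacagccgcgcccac
Ube2l6: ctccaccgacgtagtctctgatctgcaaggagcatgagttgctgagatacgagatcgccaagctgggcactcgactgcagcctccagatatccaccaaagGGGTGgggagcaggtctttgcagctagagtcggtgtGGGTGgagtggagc
Ube2m: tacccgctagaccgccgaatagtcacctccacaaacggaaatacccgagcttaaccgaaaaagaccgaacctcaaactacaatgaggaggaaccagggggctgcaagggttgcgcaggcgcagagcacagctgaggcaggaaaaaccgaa

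These windows held 1 CACCC for Fbxw9, 2 GGGTG for Ube2l6 and neither for Cul7 and Ube2m. Over the longer window of 250 bases before to 50 after a start, CACCC on either strand occurred in 57.5% of all 32851 promoters and in 63.1% of the 111 promoters of the 79 members matched by symbol. Of the 15 matched members called in either experiment, 12 had it in at least 1 promoter, Cul7 and Ube2m among them, as did 55 of all 79 matched members. These counts are per gene, and a gene can have several promoters, so they cannot be set against the 57.5%. The share per gene over all genes was not computed. The longer CACACCC, which contains CACCC, occurred in 7.95% of all promoters and 3.6% of the members' promoters, including those of Fbxw9 and Ube2m. A match to these letters is a description of the sequence and not a binding site.

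In the sorted cells, 100 members were listed and 85 assessed, and the other 15 were below the minimum. Of the 85, 9 were called upregulated in KLF3-GFP-positive cells (10.6%, against 13.8% of all assessed genes) and 2 were called downregulated (2.35%, against 8.32% of all assessed genes). Those upregulated were the E2s Ube2e2, Ube2j1, Ube2l6 and Ube2m, the cullin Cul7 and the F-box genes Fbxl12, Fbxo4, Fbxo33 and Fbxw9, and those downregulated were Fbxo2 and Fbxo36. The members' median difference was 0.04, beside 0.03 for all assessed genes, and 44 of 85 lay above the median of all genes. Both shares of calls were below those of all genes, and whether the difference exceeds chance was not tested.

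In the overexpression experiment, 105 members were listed and 93 assessed, and the other 12 were below the minimum. In KLF3-OE cells 5 were called upregulated (5.38%, against 6.6% of all assessed genes), namely Cul7, Fbxl15, Fbxw9, Ube2l6 and Ube2m. The 4 called downregulated (4.3%, against 10.1% of all assessed genes) included Fbxl2, Fbxo27 and Ube2q2. The members' median difference was -0.30, beside -0.18 for all assessed genes. In all, 60 of 93 members (64.5%) and 59.4% of all assessed genes had a lower value in KLF3-OE cells, and 42 of 93 members lay above the median of all genes. The columns of this table summed to 612621 FPKM in GFP-OE and 834882 FPKM in KLF3-OE, and the direction of small differences depended on scaling. Median-ratio scaling moved the median of all genes to 0.00 and that of the members to -0.09, and turned the calls of all genes from 738 up and 1133 down into 1164 up and 695 down. The members' calls became 6 up and 2 down.

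The classes differed in their levels. The E2 class held 72.6% of the members' summed FPKM in KLF3-GFP-negative cells and 69.8% in KLF3-GFP-positive cells, and 63.0% and 68.0% in GFP-OE and KLF3-OE cells. The F-box class, with 55 and 58 genes listed, held 15.3% and 17.0% in the sorted cells and 22.9% and 19.4% in the overexpression experiment. The 4 assessed E1s had a median difference of -0.11 in sorted cells and -0.73 in overexpressing cells. For the 32 E2s the medians were 0.03 and -0.16, for the 8 cullins 0.04 and 0.19, and for the 7 and 8 Fbxw genes 0.04 and -0.02. Fbxl genes had medians of 0.23 over 10 and -0.42 over 14 assessed genes, and Fbxo genes of -0.00 over 24 and -0.49 over 27. In the overexpression experiment 22 of 27 Fbxo genes (81.5%) had a lower value in KLF3-OE cells, against 59.4% of all assessed genes. A higher value was found for 5 of 8 cullins. With median-ratio scaling of that table the medians of the E2s and the Fbxw genes turned positive (0.04 and 0.17), the cullins stayed positive (0.39), and the E1s, Fbxl and Fbxo genes stayed negative (-0.53, -0.22 and -0.29). Quantile normalization turned the small positive medians of the E2s, cullins and Fbxw genes in the sorted cells to -0.10, -0.09 and -0.09, while the median of all genes became -0.09.

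**Figure D1:**
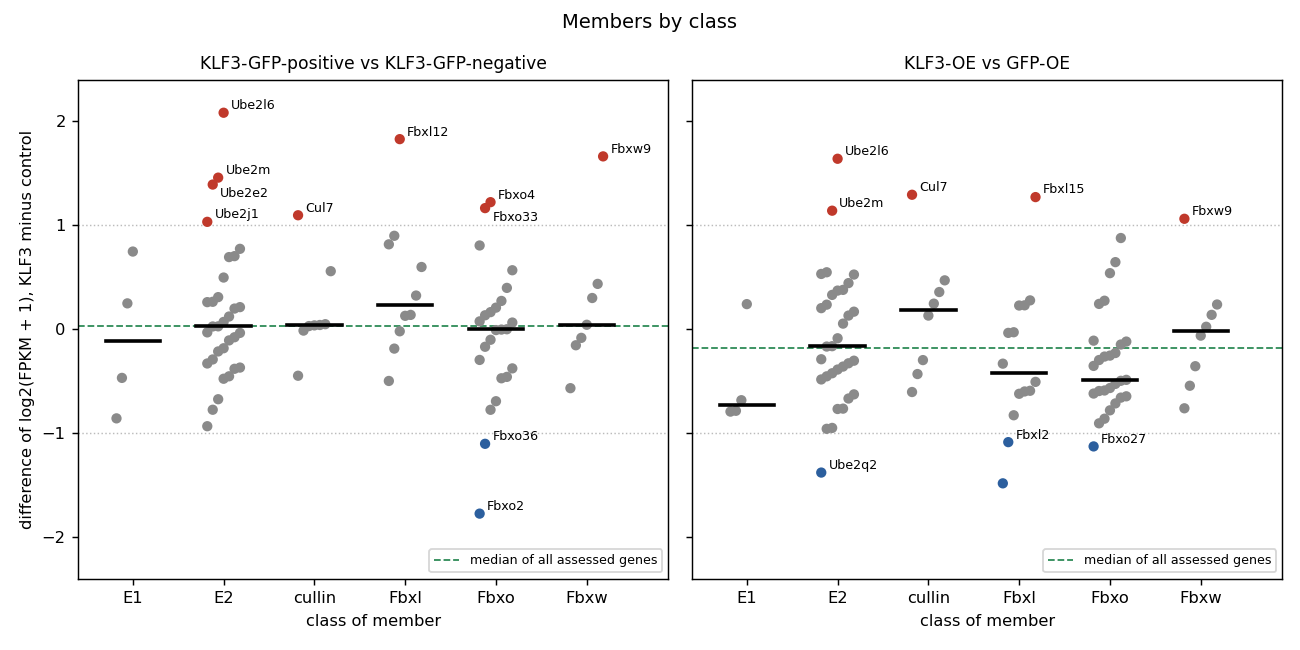
Differences of log2(FPKM + 1), KLF3 minus control, of each assessed member (points) by class, for the sorted cells (left, 85 members) and the overexpression experiment (right, 93 members). Red points are called upregulated and blue ones downregulated, black bars are class medians, dotted lines mark a difference of 1 in either direction and the dashed line the median of all assessed genes. In the right panel the E1, Fbxl and Fbxo medians lie below the dashed line and the cullin median above it.

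Ube2m, the E2 that passes NEDD8 to cullins together with Rbx1, was at 13.08 FPKM in negative and 37.69 FPKM in positive sorted cells, a difference of 1.46 on the log2 scale. In the other experiment it was at 121 FPKM in GFP-OE and 268 FPKM in KLF3-OE cells, a difference of 1.14. The gene lies at chr7:13035120-13038275 (mm10). By the mean of the 2 conditions it was the most strongly expressed of the members called in each experiment, and its call in the overexpression experiment ended with quantile normalization (0.73) and with the trend over genomic span subtracted (0.56).

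Ube2l6, the E2 for the interferon-induced modifier ISG15, had the largest difference of any member in each experiment, from a low level. It was at 0.74 FPKM in negative and 6.37 FPKM in positive sorted cells, a ratio of 8.61 and a log2 difference of 2.08. In GFP-OE and KLF3-OE cells it was at 0.89 and 4.89 FPKM, a ratio of 5.49 and a log2 difference of 1.64. The gene lies at chr2:84798828-84810335, and 11.3% of the 50-base stretches of its longest transcript also occur in transcripts of other genes. The other genes of its pathway were near the lowest value, with the E1 Uba7 at 0.19 and 0.10 FPKM and Isg15 at 0.10 and 0.24 FPKM in GFP-OE and KLF3-OE cells. Neither was listed in the table of the sorted cells.

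Cul7, a cullin that forms ligases with Skp1 and Fbxw8, was at 4.78 FPKM in negative and 11.36 FPKM in positive sorted cells (a log2 difference of 1.10). In GFP-OE and KLF3-OE cells it was at 22.61 and 56.88 FPKM (1.29). The gene lies at chr17:46650337-46664364. The call in sorted cells ended with quantile normalization (0.96). Its F-box partner Fbxw8 was at 1.18 and 1.95 FPKM in sorted cells and at 16.53 and 15.80 FPKM in the overexpression experiment, within the limits in both.

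Fbxw9, an F-box protein with WD40 repeats, was at 5.98 FPKM in negative and 21.10 FPKM in positive sorted cells (1.66), and at 10.05 FPKM in GFP-OE and 22.08 FPKM in KLF3-OE cells (1.06). It lies at chr8:85060055-85067124. Subtracting the trend over genomic span from the overexpression experiment left 0.73. These 4 genes were the members called upregulated in both experiments, 4 of 84 assessed in both (4.76%, against 2.55% of the 8887 genes assessed in both). Quantile normalization left 2 of them called in both (Fbxw9 and Ube2l6), and so did subtracting the span trend (Cul7 and Ube2l6). No member was called downregulated in both, and 69 stayed within the limits in both. The shares of all genes for these counts and for opposite calls were not computed, so the counts are not read as a trait of the members. Calls in opposite directions were absent under the main settings, but Fbxo36 was called downregulated in sorted cells and upregulated in KLF3-OE cells with median-ratio scaling (-1.14 and 1.07), quantile normalization (-1.25 and 1.16) and the span trend subtracted (-1.19 and 1.18). Fbxl4 was called upregulated and then downregulated with a pseudocount of 0.1 (1.38 and -1.10), and likewise with a floor of 0.1.

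**Figure D2:**
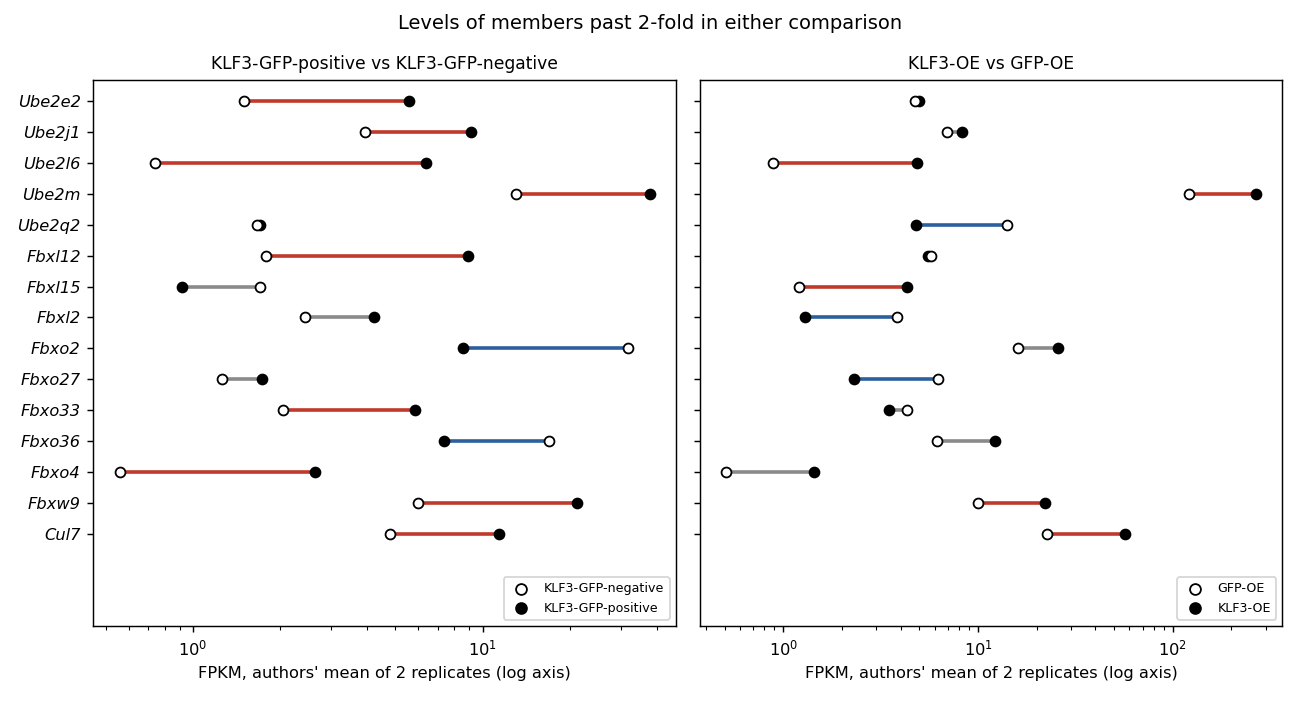
FPKM (log axis, the authors' mean of 2 replicates) of 15 of the 16 members called in either experiment, with open circles for the control and filled circles for the KLF3 condition, in sorted cells (left) and in the overexpression experiment (right). Lines are red where the member was called upregulated, blue where downregulated and grey otherwise, and Ube2m, Ube2l6, Fbxw9 and Cul7 have a red line in both panels.

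Other E1s and E2s are described by the modifier they carry. For NEDD8, the E1 subunit Uba3 was lower in both KLF3 conditions, at 20.27 and 14.38 FPKM in sorted cells (-0.47) and at 53.87 and 30.69 FPKM in the overexpression experiment (-0.79), in the opposite direction to Ube2m. The second NEDD8 E2, Ube2f, which serves Cul5, was at 44.10 and 37.90 FPKM and at 36.36 and 47.58 FPKM. For SUMO, the E1 subunit Uba2 was at 65.31 and 35.61 FPKM in sorted cells (-0.86) and at 153 and 94.92 FPKM in the overexpression experiment (-0.68). Uba2 was not called, although quantile normalization took it to -1.01 in the overexpression experiment. Uba6, a second ubiquitin E1, was at 1.6 and 2.09 FPKM in sorted cells and at 6.56 and 3.39 FPKM in the overexpression experiment (-0.78). Ube2z, the E2 that Uba6 charges, was at 3.44 and 6.59 FPKM (0.77) and at 30.67 and 34.61 FPKM (0.17).

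Of the 3 E2s of endoplasmic reticulum (ER)-associated degradation, which removes misfolded proteins from the ER, Ube2j1 was called upregulated in sorted cells. It was at 3.94 FPKM in negative and 9.11 FPKM in positive sorted cells (1.03), close to the limit, and was not called with median-ratio scaling or quantile normalization (0.91). Ube2g2 was at 4.13 and 7.30 FPKM (0.69) and Ube2j2 at 63.94 and 62.60 FPKM (-0.03). In GFP-OE and KLF3-OE cells Ube2j1 was at 6.91 and 8.32 FPKM, Ube2g2 at 15.80 and 12.39 FPKM and Ube2j2 at 39.50 and 54.09 FPKM, all within the limits.

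The E2s of the anaphase-promoting complex (APC/C), the ligase of mitotic exit, were among the most abundant members and were not called. Ube2c, which starts chains on its substrates, was at 300.1 and 232 FPKM in sorted cells (-0.37) and at 201 and 294 FPKM in the overexpression experiment (0.55). Ube2s, which extends them, was at 61.67 and 44.06 FPKM (-0.48) and at 533 and 584 FPKM (0.13), the highest of all members in that experiment. Both had thus a lower value in KLF3-GFP-positive cells and a higher one in KLF3-OE cells.

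The E2s of DNA damage tolerance and repair were lower for 5 of 6 genes in each experiment, with medians of -0.35 and -0.60 and no call. Of all assessed genes, 48.1% and 59.4% were lower, with medians of 0.03 and -0.18, and 22.1% and 16.7% were called in either direction. Whether these 6 genes differ from all genes was not tested. Ube2t, the E2 of the Fanconi anaemia pathway, was at 248 and 130 FPKM in sorted cells (-0.93) and at 50.85 and 37.67 FPKM in the overexpression experiment (-0.42), and passed the limit in sorted cells with quantile normalization (-1.07). The Rad6 homologues Ube2a and Ube2b moved apart, with Ube2a at 253 and 194 FPKM (-0.38), then 57.88 and 84.14 FPKM (0.53), and Ube2b at 62.16 and 74.85 FPKM (0.26), then 77.43 and 39.63 FPKM (-0.95). Ube2b in the overexpression experiment passed the limit with quantile normalization (-1.08) and with the span trend subtracted (-1.02). Ube2n was at 5.66 and 5.50 FPKM and at 28.89 and 25.70 FPKM. Its cofactors Ube2v1 and Ube2v2, which direct it to one linkage of ubiquitin, were at 32.47 and 18.67 FPKM (-0.77) and at 25.49 and 12.64 FPKM (-0.96) in the overexpression experiment. In sorted cells Ube2v1 was at 4.35 and 2.91 FPKM and Ube2v2 at 1.5 and 0.99 FPKM. Of the 50-base stretches of the longest Ube2v1 transcript, 91.2% also occur in transcripts of other genes, chiefly the overlapping Gm20431, so its level is uncertain.

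Among the general-purpose E2s, Ube2d3 had the largest difference of the Ube2d family, at 189 and 118 FPKM in sorted cells (-0.67) and at 229 and 144 FPKM in the overexpression experiment (-0.67), where quantile normalization gave -1.08. Ube2d1 was at 7.52 and 6.91 FPKM and at 24.11 and 16.97 FPKM, and Ube2d2a at 11.06 and 13.45 FPKM and at 34.92 and 40.35 FPKM. Ube2e2 was the one Ube2e gene called, at 1.5 FPKM in negative and 5.56 FPKM in positive sorted cells (1.39), but at 4.74 and 4.96 FPKM in GFP-OE and KLF3-OE cells (0.05). Its relatives Ube2e1 (33.15 and 38.20 FPKM) and Ube2e3 (13.18 and 13.89 FPKM) were more abundant in sorted cells and had differences of 0.20 and 0.07. The level of Ube2e1 is uncertain, since 59% of its 50-base stretches are shared with other genes. Most of these lie in the overlapping Nkiras1 on the other strand, at 8.70 and 7.28 FPKM in sorted cells. Ube2q2 was called downregulated in the overexpression experiment, at 14.13 FPKM in GFP-OE and 4.82 FPKM in KLF3-OE cells (-1.38), and stayed at 1.66 and 1.71 FPKM in sorted cells. A processed pseudogene holds most of the 20.9% of its 50-base stretches that are shared with other genes.

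The remaining cullins stayed within the limits in both experiments. Cul5, the scaffold for Rnf7 and elongin-bound receptors, was the most abundant cullin of the sorted cells at 94.44 and 96.94 FPKM, but at 12.42 and 14.92 FPKM it was the second lowest in the overexpression experiment. Cul1, the scaffold for Skp1 and the F-box proteins, was at 42.37 and 43.86 FPKM and at 39.43 and 43.29 FPKM. Cul3, which binds BTB-domain receptors, was at 11.38 and 11.27 FPKM and at 54.84 and 70.57 FPKM (0.36). Cul4a and Cul4b, which bind Ddb1, were at 7.84 and 12.02 FPKM (0.56) and at 9.39 and 9.69 FPKM (0.04) in sorted cells, and at 22.09 and 16.13 FPKM (-0.43) and at 57.45 and 46.59 FPKM (-0.30) in the overexpression experiment. Cul2 was lower in both KLF3 conditions, at 11.61 and 8.25 FPKM (-0.45) and at 36.32 and 23.56 FPKM (-0.60). Cul9, a close relative of Cul7, was at 4.58 and 4.70 FPKM and at 1.49 and 2.45 FPKM (0.47). Of the cullins, only Cul7 was called in either experiment under the main settings. That is 12.5% of them in each experiment, against 22.1% and 16.7% of all assessed genes called in either direction.

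Of the Fbxl genes, Fbxl12 had the largest difference in sorted cells, at 1.79 FPKM in negative and 8.91 FPKM in positive sorted cells (1.83). It was at 5.71 and 5.55 FPKM in GFP-OE and KLF3-OE cells (-0.03). Its transcript shares 44.3% of its 50-base stretches with the overlapping Ubl5 on the other strand, which was at 243 and 346 FPKM in the same cells, and Smart-seq2 does not mark strand. Fbxl15, an F-box protein of the BMP pathway, was at 1.20 FPKM in GFP-OE and 4.31 FPKM in KLF3-OE cells (1.27), and at 1.71 and 0.92 FPKM in sorted cells (-0.50). It shares 23.1% of its 50-base stretches with Cuedc2, which was at 45.48 and 91.71 FPKM in GFP-OE and KLF3-OE cells, and the span trend subtracted left 0.60. Fbxl2, a membrane-anchored F-box protein, was at 3.86 and 1.29 FPKM in the overexpression experiment (-1.09) and at 2.44 and 4.21 FPKM in sorted cells (0.60). The call of Fbxl2 ended with median-ratio scaling (-0.94), quantile normalization (-0.81) and the span trend subtracted (-0.78), and it shares 13.1% of its 50-base stretches with Ubp1, which was at 23.95 and 10.50 FPKM in GFP-OE and KLF3-OE cells.

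Fbxl4, Fbxl5, Fbxl6 and Fbxl19 were not called under the main settings. Fbxl5, the iron-regulated receptor for iron regulatory proteins, was at 8.34 and 7.21 FPKM and at 24.59 and 17.02 FPKM (-0.51). Fbxl6 was at 4.4 and 9.07 FPKM in sorted cells (0.90), past the limit with a pseudocount of 0.1 (1.03), and at 18.83 and 23.04 FPKM in the other experiment. Fbxl19, which binds CpG islands, was at 0.92 and 1.10 FPKM and at 24.13 and 18.98 FPKM. Fbxl4, a mitochondrial F-box protein, was at 0.72 and 2.03 FPKM in sorted cells (0.82) and at 3.95 and 1.79 FPKM in the overexpression experiment (-0.83), in opposite directions.

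Of the Fbxo genes, Fbxo2, which binds high-mannose glycans on misfolded glycoproteins, had the largest decrease of any member in sorted cells. It was at 31.78 FPKM in negative and 8.59 FPKM in positive sorted cells (-1.77). The value was higher in KLF3-OE than in GFP-OE cells, at 16.06 and 25.69 FPKM (0.65). Fbxo36 followed the same pattern at 16.92 and 7.35 FPKM in sorted cells (-1.10) and 6.19 and 12.21 FPKM in the overexpression experiment (0.88). Fbxo33 was at 2.05 and 5.84 FPKM in sorted cells (1.17) and at 4.34 and 3.48 FPKM in the overexpression experiment (-0.25). Fbxo4, a receptor reported for cyclin D1, was at 0.56 and 2.64 FPKM in sorted cells (1.22) and at 0.51 and 1.43 FPKM in the overexpression experiment, below the minimum.

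None of the other F-box proteins of the glycoprotein-binding subfamily was called in sorted cells. Fbxo6 was at 33.99 and 50.86 FPKM (0.57) and at 62.28 and 73.93 FPKM (0.24). Fbxo44 was at 2.48 and 1.51 FPKM (-0.47) and at 5.85 and 4.71 FPKM (-0.26), and Fbxo17 at 8.29 and 8.24 FPKM (-0.01) and at 5.35 and 8.23 FPKM (0.54). Fbxo27 was called downregulated in KLF3-OE cells, at 6.25 FPKM in GFP-OE and 2.32 FPKM in KLF3-OE cells (-1.13), and was at 1.26 and 1.73 FPKM in sorted cells (0.27). Its call ended with median-ratio scaling (-0.96) and quantile normalization (-0.80). In sorted cells 1 of these 5 genes was called, and in the overexpression experiment 1 other. That is 20% in each experiment, near the 22.1% and 16.7% of all assessed genes called in either direction.

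Fbxo5 (Emi1), the inhibitor of the APC/C, was at 63.97 and 36.98 FPKM in sorted cells (-0.77) and at 66.44 and 46.83 FPKM in the overexpression experiment (-0.50). Its germ cell relative Fbxo43 (Emi2) was at or below 0.3 FPKM in all 4 conditions. Fbxw7, the receptor for cyclin E and MYC, was at 3.28 and 3.41 FPKM and at 6.80 and 8.20 FPKM. Fbxo15, a marker of undifferentiated mESCs, was at 15.60 and 16.36 FPKM in sorted cells (0.06) and at 120 and 72.96 FPKM in GFP-OE and KLF3-OE cells (-0.71). It was the most abundant F-box gene of the overexpression experiment by its mean, followed by Fbxo22 at 66.95 and 81.19 FPKM. In sorted cells Fbxo22 was at 28.84 and 17.47 FPKM (-0.69). Fbxo18, a DNA helicase with an F-box, was higher in KLF3-GFP-positive cells, at 19.37 and 34.61 FPKM (0.81), and lower in KLF3-OE cells, at 26.42 and 17.23 FPKM (-0.59). Fbxo11, a receptor for BCL6, was at 2.63 and 2.23 FPKM and at 11.45 and 5.65 FPKM (-0.90, or -1.01 with a pseudocount of 0.1). Fbxw2 was lower in both KLF3 conditions, at 31.45 and 20.91 FPKM (-0.57) and at 29.66 and 20.04 FPKM (-0.54). Fbxw11, a receptor for beta-catenin, was at 2.28 and 3.04 FPKM (0.30) and at 12.21 and 6.80 FPKM (-0.76). Fbxw17 was at 5.11 and 4.77 FPKM and at 7.91 and 8.06 FPKM.

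The partners of the members were read from 7 lists. The ER-associated ubiquitin ligases and their cofactors had the most calls in sorted cells, where all 15 assessed genes were higher in KLF3-GFP-positive cells and 7 were called upregulated (46.7%, against 13.8% of all assessed genes), with a median of 0.87 beside 0.03 for all genes. Derl1, a channel component of the ER membrane, was at 6.28 and 25.20 FPKM (1.85). Herpud1, a stress-induced organizer of the complex, was at 11.73 and 43.09 FPKM (1.79), and Erlec1, a lectin of the ER lumen, at 1.24 and 5.54 FPKM (1.55). In KLF3-OE cells none of the 15 was called upregulated and 1 was called downregulated (all genes, 6.6% and 10.1%), and the median was -0.11 beside -0.18 for all genes. Derl3 was at 4.32 and 1.65 FPKM there (-1.01, or -0.85 with median-ratio scaling), Aup1 at 31.58 and 54.81 FPKM (0.78) and Derl2 at 9.69 and 16.95 FPKM (0.75).

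Of the cullin-RING core and its adaptors, 3 of 24 were called upregulated in sorted cells (12.5%, near the 13.8% of all genes, with a median of -0.05). In KLF3-OE cells 1 was called upregulated and 3 downregulated (12.5%, near the 10.1% of all genes, with a median of -0.30). Ddb1, the adaptor of Cul4a and Cul4b, was at 4.24 and 12.91 FPKM in sorted cells (1.41) but at 207 and 167 FPKM in the overexpression experiment (-0.31), and Klhl13, a Cul3 receptor, was at 0.94 and 3.46 FPKM in sorted cells (1.20). Tceb2, which encodes elongin B, was at 486 and 1143 FPKM in GFP-OE and KLF3-OE cells (1.23, or 0.67 with quantile normalization and 0.76 with the span trend subtracted). The Cul4 receptors Vprbp (25.69 and 10.53 FPKM, -1.21) and Crbn (14.53 and 6.42 FPKM, -1.07) were called downregulated in the same cells, although Vprbp was at -0.91 with the span trend subtracted and Crbn at -0.88 with median-ratio scaling.

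Of the genes of neddylation and its removal, 0 of 17 were called in sorted cells (22.1% of all genes in either direction) and 2 of 19, both downregulated, in KLF3-OE cells (10.5%, near the 10.1% of all genes), with medians of 0.10 and -0.25. Nedd8 itself was at 1281 and 1539 FPKM in sorted cells (0.26) and at 159.8 and 312 FPKM in the overexpression experiment (0.96, or 1.17 with median-ratio scaling). The NEDD8 ligase components Dcun1d1 (11.42 and 5.18 FPKM, -1.01) and Dcun1d4 (5.35 and 2.16 FPKM, -1.01) were those called, and both stayed within the limits with median-ratio scaling (-0.82 and -0.85). The largest differences in sorted cells were those of Dcun1d2 (0.71), Dcun1d5 (0.69) and Cops3 (-0.68), the last of which encodes a subunit of the COP9 signalosome.

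Among APC/C subunits, 0 of 16 were called in sorted cells, against 22.1% of all genes in either direction, where the largest differences were those of Anapc5 (-0.80), Anapc16 (0.76) and Cdc20 (-0.69). In KLF3-OE cells 4 were called upregulated and 1 downregulated, against 6.6% and 10.1% of all genes, with a median of 0.34 beside -0.18 for all genes. Anapc11, the RING subunit, was at 70.61 and 169 FPKM (1.24), Anapc15 at 90.79 and 197 FPKM (1.11) and Cdc23 at 53.87 and 16.91 FPKM (-1.62). All 4 upregulated calls ended with quantile normalization, which gave 0.98 for Anapc11, 0.92 for Anapc4, 0.79 for Anapc15 and 0.60 for Anapc13. Of the DNA damage ligases, 0 of 9 were called in sorted cells (22.1% of all genes in either direction), with a median of -0.36 beside 0.03 for all genes. In KLF3-OE cells 4 of 10 were called downregulated, against 10.1% of all genes, with a median of -0.89 beside -0.18 for all genes. The listed genes are long, with a median span of 61.9 kb, and all assessed genes from 60.5 kb had a median of -0.49. The part of span in the values of this list was not tested. Rad18, which works with the Rad6 homologues, was at 18.72 and 7.01 FPKM (-1.30, or -0.99 with the span trend subtracted), and Rnf20, a histone H2B ligase that also uses them, at 11.55 and 4.09 FPKM (-1.30). The call of Shprh (-1.30) also ended with the span trend subtracted (-0.99). In sorted cells Rnf8 was at 19.03 and 9.87 FPKM (-0.88) and Bard1 at 2.01 and 0.96 FPKM (-0.62).

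Of the 5 assessed F-box proteins with other names, 0 were called in sorted cells (22.1% of all genes in either direction), with Btrc and Kdm2b each at -0.83. In KLF3-OE cells 1 of 5 was called downregulated (20%, against 10.1% of all genes), and all 5 were lower, against 59.4% of all genes. The gene called was Kdm2a, a histone demethylase with an F-box, at 9.72 and 3.82 FPKM (-1.15). Its call ended with median-ratio scaling (-0.97), quantile normalization (-0.85) and the span trend subtracted (-0.85). Skp2, the receptor for p27, was at 19.45 and 12.34 FPKM (-0.62). Among the modifiers, Ufm1 was called upregulated in sorted cells at 57.04 and 120 FPKM (1.06, or 0.95 with quantile normalization). The polyubiquitin gene Ubb was at 1381 and 856 FPKM in sorted cells (-0.69) and at 841 and 502 FPKM in the overexpression experiment (-0.74). Sumo3 was called downregulated in KLF3-OE cells at 159 and 66.89 FPKM (-1.24), and Sumo2 was at 272 and 141 FPKM (-0.95).

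**Figure D3:**
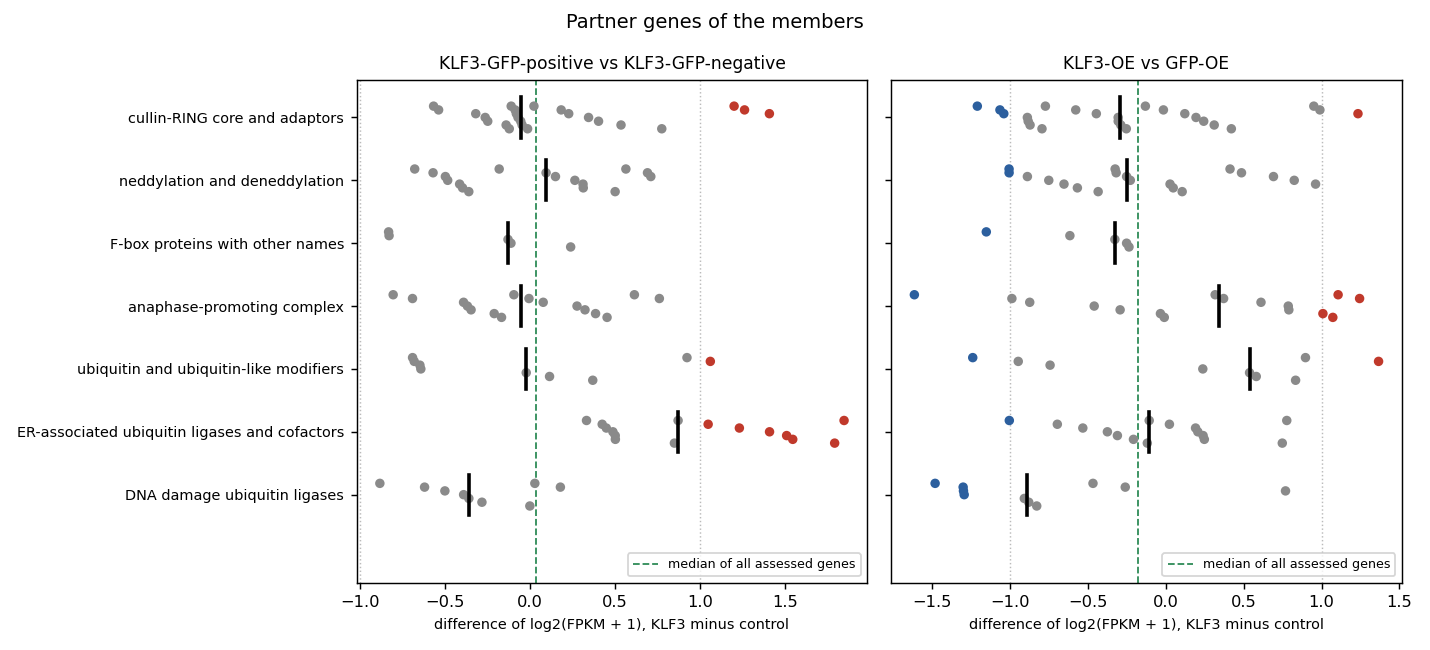
Differences of log2(FPKM + 1), KLF3 minus control, of the assessed partner genes (points) in 7 lists, for the sorted cells (left) and the overexpression experiment (right). Red and blue points are called upregulated and downregulated, black bars are list medians and the dashed line is the median of all assessed genes. All 15 ER-associated genes lie right of 0 in the left panel, while in the right panel they lie on both sides.

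The experiments differed in method, level and cell population, and each has its own controls, so the members' values are set side by side without a test. The upregulation of Ube2e2, Ube2j1, Fbxl12 and Fbxo33 in sorted cells came with differences of 0.05, 0.24, -0.03 and -0.25 in the overexpression experiment. Fbxl2, Fbxo27 and Ube2q2, downregulated in KLF3-OE cells, had differences of 0.60, 0.27 and 0.03 in sorted cells. Fbxo2, Fbxo36 and Fbxl15 had opposite signs in the experiments.

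**Figure D4:**
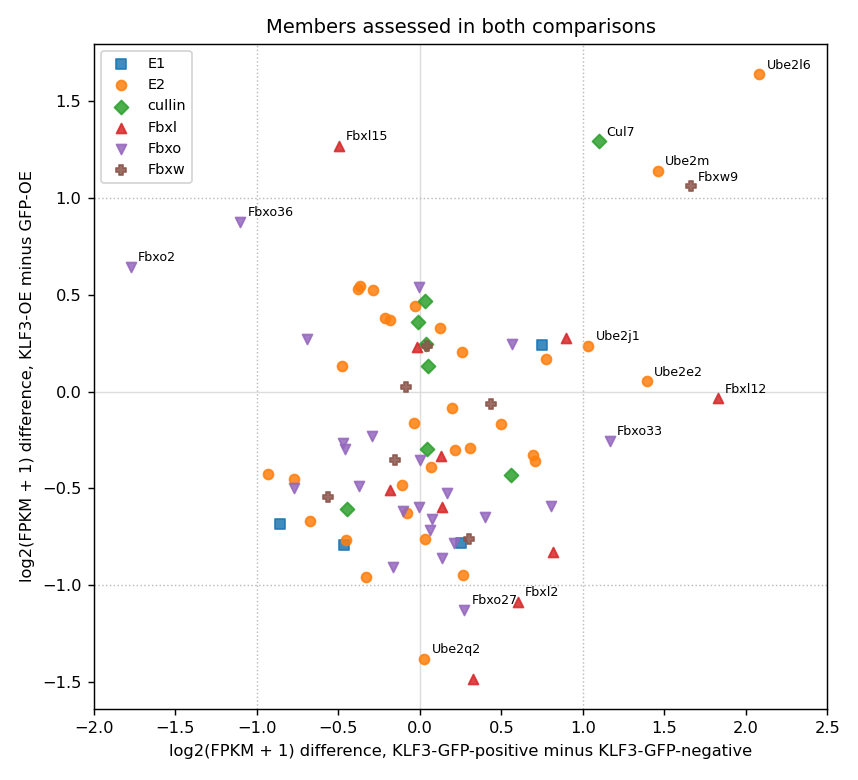
Difference of log2(FPKM + 1) of the 84 members assessed in both experiments, in sorted cells (x axis, KLF3-GFP-positive minus KLF3-GFP-negative) and in the overexpression experiment (y axis, KLF3-OE minus GFP-OE), with 1 marker shape per class. Dotted lines mark a difference of 1 in either direction, and Ube2l6, Ube2m, Cul7 and Fbxw9 are the 4 members beyond 1 on both axes.

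Differences in the overexpression experiment went with the genomic span of genes. All assessed genes were divided by span into 5 bins of nearly equal number, and their median fell from 0.35 in the bin of the shortest genes (up to 7.41 kb) through -0.01, -0.22 and -0.44 to -0.49 in that of the longest (from 60.5 kb). The members in the same bins had medians of 0.19, 0.01, -0.29, -0.43 and -0.21 over 12, 12, 20, 29 and 20 genes. The 5 members called upregulated in KLF3-OE cells had spans of 2.26 kb (Fbxl15), 3.16 kb (Ube2m), 7.07 kb (Fbxw9), 11.5 kb (Ube2l6) and 14.0 kb (Cul7), so that 3 fell in the first bin, 2 in the next and 0 of 69 members in the longer 3. The share of all genes called upregulated in each bin was not computed. Those called downregulated ranged from 6.49 kb (Fbxo27) to 82.6 kb (Fbxl2). In the sorted cells the medians of all genes ran from -0.03 to 0.12 over the bins. With the span trend subtracted, Cul7 and Ube2l6 were the ones of the 4 shared genes called in both experiments.

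**Figure D5:**
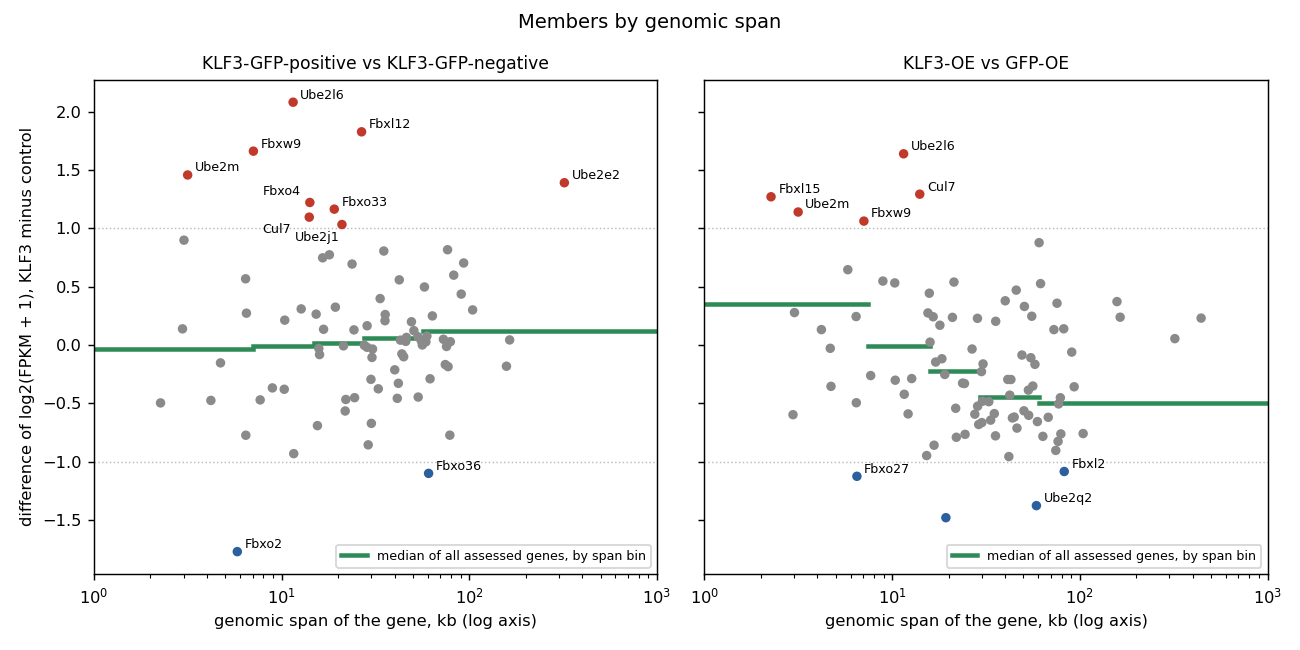
Difference of log2(FPKM + 1), KLF3 minus control, of each assessed member (points) against the genomic span of its gene in kb (log axis), in sorted cells (left) and in the overexpression experiment (right). Green bars give the median of all assessed genes in each span bin, which falls from 0.35 to -0.49 in the right panel, with called members in red (upregulated) or blue (downregulated), all but 1 of them labelled.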

How the data were processed

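The authors aligned reads to mm10 with STAR (2.6.0 in the submitters' processing notes) guided by GENCODE, computed FPKM with Cufflinks (2.2.1) and deposited 1 table per experiment with 2 columns, each the mean of 2 replicates, rounded to 2 decimals, with 0.1 as the lowest value. Whether counting used strand is not given in the sources used here. The overexpression libraries came from a directional kit and Smart-seq2 does not mark strand. Depth per sample is unknown, so no counting interval is given.

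The symbol rule that sets the members, which uses no measured value, and the lists were chosen with earlier results of these data known. Samples were grouped by their labels. Limma on replicates, the replicate block and leaving out replicates could not be run on means. Named members are those called, the 3 highest and the 3 most different of each class in each table, and those of 13 function groups, and of each partner list the 3 most different genes. Some genes that met this rule are not reported here. Of other genes, some were named after their values were seen (Fbxw8 as partner of Cul7, Ubl5, Cuedc2 and Ubp1 as overlapping genes, Nedd8, Isg15).

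Identifiers at several loci (11 and 14) were kept at their most expressed locus. Medians and calls were computed with Python 3.11.15, pandas 2.3.3 and numpy 2.4.6. The 7 alternatives used a pseudocount of 0.1, only a floor of 0.1, no minimum, a minimum of 5 FPKM, median-ratio scaling, quantile normalization, and subtraction of a lowess trend (fraction 0.3, statsmodels 0.14.6) over genomic span. The steps were also run on simulated data, with little noise and with changes planted only in well expressed genes. That run does not cover low genes or the noise of the real samples. Stretches of 50 bases came from GENCODE M21 transcripts and promoters from RefSeq.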

Additional observations from a re-analysis of the deposited data

How the results depend on the processing

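In sorted cells, the count of upregulated members fell from 9 to 5 with a minimum of 5 FPKM, where 49 members were assessed, and the members' median moved from 0.04 to -0.086 with quantile normalization, which also moved that of all genes to -0.088. In the overexpression experiment, the count of downregulated members rose from 4 to 7 with a pseudocount of 0.1 and to 8 with a floor of 0.1. A minimum of 5 FPKM left 3 upregulated and 2 downregulated of 75 members. Median-ratio scaling left 2 downregulated, with a median of -0.090. Quantile normalization gave a median of -0.10, with 5 members up and 5 down, and the span trend subtracted left 3 upregulated and a median of -0.18. The cause of these shifts was not tested, except that a higher minimum assesses fewer genes. The other counts and medians of the members stayed within 1.5 times or within 0.1 of the main values. In sorted cells the calls of Fbxl12, Fbxo2, Fbxo4, Fbxo33, Fbxo36, Fbxw9, Ube2e2, Ube2l6 and Ube2m held in every alternative in which they were assessed. Those of Cul7 and Ube2j1 did not. In the overexpression experiment the calls that held in this way included those of Cul7, Ube2l6 and Ube2q2. Those of Fbxl2, Fbxl15, Fbxo27, Fbxw9 and Ube2m did not. Ube2l6 falls below a minimum of 5 FPKM in both experiments, which leaves Cul7, Fbxw9 and Ube2m called in both with that minimum. No paired analysis was possible because each table holds 1 mean per condition. Leaving out replicates was not possible for the same reason.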

Other observations

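Some members are neighbours in the genome, and their values differed. On chromosome 4, Fbxo6, Fbxo44 and Fbxo2 follow each other with gaps of 659 and 138 bases between the genes in GENCODE M21. In sorted cells their differences were 0.57, -0.47 and -1.77, so that the most abundant pair of the cluster went in opposite directions, and in the overexpression experiment they were 0.24, -0.26 and 0.65. On chromosome 9, Ube2q2 and Fbxo22 lie 1395 bases apart on the same strand. In KLF3-OE cells Ube2q2 was at 4.82 FPKM against 14.13 FPKM in GFP-OE cells (-1.38), whereas Fbxo22 was at 81.19 FPKM against 66.95 FPKM (0.27). On chromosome 7, Fbxo27 and Fbxo17 are separated by 17465 bases and had differences of -1.13 and 0.54 in the overexpression experiment.

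Fbxo36 overlaps Trip12, which encodes a ubiquitin ligase, on the opposite strand. Trip12 was at 40.62 and 45.38 FPKM in sorted cells (0.16), while Fbxo36 fell to 7.35 FPKM from 16.92 FPKM.

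Fbxo16 was below the minimum in sorted cells, with 1.59 FPKM in negative and 0.27 FPKM in positive cells, and was called downregulated (-1.03) when no minimum was applied. In the overexpression experiment it was at 2.96 and 2.67 FPKM.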
